A study of Mus musculus with 12 samples.

Results

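The comparison described here sets subcutaneous tumours of mice given regorafenib together with anti-PD1 against tumours of mice given vehicle. It was read from the gene counts of 6 of the 12 RNA-seq libraries of the study, 3 for the combination and 3 for vehicle, and all 55487 gene identifiers of the count table were considered. Of these, 16974 had enough reads to be tested. The tumours were grown from Sq-1979, a mouse line labelled as head and neck squamous carcinoma. The cells were injected subcutaneously into C3H/HeN males aged 6 weeks, an immunocompetent host of 1 strain. Treatment began 20 days after the injection and went on until the experiment ended. Regorafenib was given at 5 mg/kg/day in the regorafenib arm; the labels give no separate dose for the combination, no dose or clone for anti-PD1, and describe daily oral gavage for every arm, vehicle included. The other 6 libraries, 3 from mice given anti-PD1 alone and 3 from mice given regorafenib alone, entered the same normalisation and the same fit. The labels do not say that the 3 libraries of a group came from 3 mice, so p-values measure the spread between these libraries.

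Regorafenib is an oral inhibitor of several kinases, among them the VEGF receptors of endothelial cells, TIE2, the PDGF and FGF receptors, KIT, RET and the RAF kinases, and VEGF signalling keeps the sprouting tip cells of a growing tumour vessel alive. PD-1 is an inhibitory receptor on activated T cells, and antibodies that block it release those cells from inhibition by PD-L1 on tumour and myeloid cells. A tumour grown under the skin also holds host fibroblasts, vessels and blood-derived cells, whose transcripts are counted together with those of the carcinoma cells.

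The 3 vehicle libraries held 23921871 to 27605744 counts and the 3 combination libraries 22815801 to 27881867. Squamous markers were high in all of them. Krt5, a basal keratin, stood at 6724, 7890.3 and 6875 CPM with vehicle and 6669.6, 5935 and 6245 CPM with the combination, where CPM is the read count set relative to the scaled size of the library, and Trp63, the basal transcription factor p63, at 496, 423 and 434 CPM with vehicle and 541, 394 and 412 CPM with the combination. The vehicle libraries were close to each other, with a biological coefficient of variation of 0.102, against 0.231 in the combination, 0.238 with anti-PD1 alone and 0.301 with regorafenib alone. Libraries of 1 group still differed by more than counting noise, with chi-square per degree of freedom of 11.9 to 18.7 between vehicle libraries and 30.8 to 61.3 between combination libraries. These values cannot tell libraries of separate tumours from separate preparations of 1 tumour. On the first principal component (34.1% of the variance) combination 1 and combination 2 lay at 49.86 and 52.04, the vehicle libraries between -34.54 and -23.95, and combination 3 at 3.54, in between.

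Compared with vehicle, 1246 of the 16974 tested genes differed in the combination (7.34%; edgeR quasi-likelihood test, Benjamini-Hochberg adjusted p under 0.05). Of these, 853 were higher (5.03% of tested genes) and 393 lower (2.32%), and the median change among them was 1.7-fold for the higher and 1.39-fold for the lower genes. At least 2-fold changes were found for 314 higher and 93 lower genes. For 1245 of the 1246 genes the 3 combination values did not overlap the 3 vehicle values, against 39.2% of all tested genes. The median log2 fold change of all tested genes was 0.02. At an unadjusted p under 0.05, the background for the list counts below, 2620 genes (15.4%) were higher and 2123 (12.5%) lower.

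These calls sat close to the threshold. All 1246 kept their direction and an unadjusted p under 0.05 when any 1 of the 12 libraries was left out, but 1 gene, Mest, kept an adjusted p under 0.05 each time. Without vehicle 1, vehicle 2 or vehicle 3 the median adjusted p of the 1246 genes was 0.0948, 0.109 and 0.106, and 1 call was left in each case. Without combination 1, 23 calls were left, without combination 2, 12, and without combination 3, 997 of the 1246. The count with the 6 libraries compared as the only ones fitted was 2068, and DESeq2 gave 2563. The higher share was 68.5% in the edgeR fit, 57.2% with the 6 libraries alone and 54.9% with DESeq2.

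**Figure D1:**
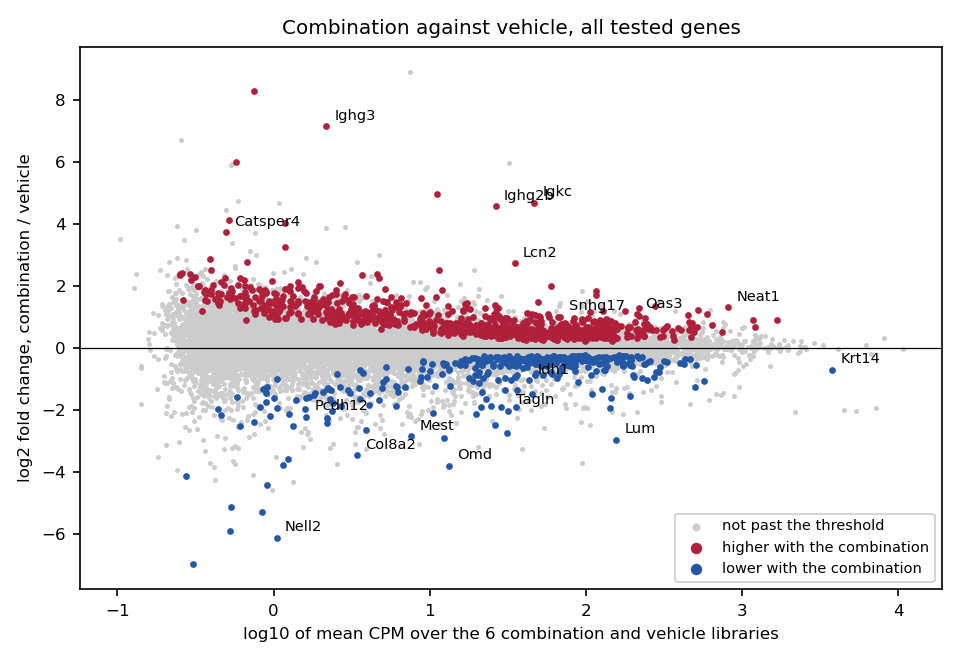
Each point is 1 of the 16974 tested genes, with log10 of the mean CPM over the 6 combination and vehicle libraries on the horizontal axis and the log2 fold change of the combination over vehicle on the vertical axis. Coloured points are the 853 genes that were higher and the 393 that were lower at an adjusted p under 0.05. Antibody genes lie near the top of the plot, and Nell2 near the bottom.

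The lowest p-value of the comparison belonged to Mest, an imprinted gene expressed from the paternal copy, in embryonic mesoderm above all. Mest (ENSMUSG00000051855.15, chromosome 6, 30723547 to 30748465, plus strand, GRCm38) was counted at 13.8, 14 and 12.4 CPM with vehicle and 1.63, 2.12 and 1.81 CPM with the combination. The groups did not overlap, and the mean fell from 13.4 ± 0.859 to 1.86 ± 0.247 CPM (SD, n = 3 each), a 7.19-fold difference (log2 fold change -2.85 ± 0.26, adjusted p = 0.00583, with the SE after ±). With regorafenib alone Mest stood at 3.0, 2.37 and 1.92 CPM and with anti-PD1 alone at 6.92, 12.7 and 7.94 CPM. Of its exonic bases, 912 of 3945 overlap exons of the opposite strand, among them those of Copg2, which was at 92.3, 86.6 and 91.4 CPM with vehicle and 82.1, 75.8 and 73.2 CPM with the combination (-0.23 ± 0.09, adjusted p = 0.132).

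The other genes that fell with the smallest p-values had roles in vessels, trafficking, metabolism and matrix. Pcdh12, an endothelial protocadherin, went from 3.1, 2.43 and 2.47 CPM with vehicle to 0.619, 0.418 and 0.688 CPM with the combination (log2 fold change -2.21 ± 0.26, adjusted p = 0.0101). Snx7, a sorting nexin, was at 26, 24.6 and 28.5 CPM against 13.5, 13.4 and 16.3 CPM (-0.87 ± 0.11, adjusted p = 0.0113). Sec23a, a subunit of the COPII coat that carries cargo out of the endoplasmic reticulum, was at 52.6, 47.3 and 51.6 CPM against 36.1, 29.8 and 34.2 CPM (-0.60 ± 0.08, adjusted p = 0.0113). Idh1, the cytosolic isocitrate dehydrogenase that makes NADPH, lay at 53.4, 62.9 and 59.4 CPM against 26.2, 29.5 and 29.6 CPM, with every combination value below every vehicle value (-1.04 ± 0.14, adjusted p = 0.0113). Tfr2, transferrin receptor 2, was at 2.56, 4.94 and 3.93 CPM against 1.15, 0.87 and 0.761 CPM (-2.04 ± 0.28, adjusted p = 0.0113). H2-M5, a nonclassical MHC class I gene, was at 2.22, 2.32 and 2.31 CPM against 0.0884, 0.209 and 0.254 CPM (-3.57 ± 0.53, adjusted p = 0.0122). Predicted genes and antigen receptor segments aside, the largest decrease among called genes with a mean of at least 1 CPM was in Nell2, a secreted glycoprotein with EGF-like repeats. Nell2 had 161 counts in the 3 vehicle libraries together (40, 74 and 47) and 2 in the 3 combination libraries (0, 0 and 2), a level 82.7-fold lower with a 95% counting interval of 22.5 to 689. The fit gave log2 fold change -6.11 ± 0.91, adjusted p = 0.0122, and a log2 fold change of -8.72 without combination 3, which held both counts. Sbspon, a secreted somatomedin B and thrombospondin domain protein, was at 1.72, 2.88 and 1.85 CPM against 0.265, 0.0696 and 0.145 CPM (-3.76 ± 0.85, adjusted p = 0.0327), with 2001 of 2748 exonic bases also annotated on the opposite strand; for Sec23a that overlap was 431 of 4840. Of 12 decreases taken by smallest p or by largest change, which include Col8a2, Col13a1 and Omd among the matrix genes below, 1 remained without any 1 vehicle library (adjusted p 0.0296 to 0.116), 5 without combination 1, 3 without combination 2 and 10 without combination 3, and 11 without anti-PD1 3. The 1 that remained without a vehicle library was Mest.

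Among the genes that rose with the smallest p-values were a noncoding RNA, several enzymes and a channel subunit. Snhg17, a noncoding host transcript of small nucleolar RNAs (ENSMUSG00000085385.7, chromosome 2, 158353700 to 158361580, minus strand), stood at 43.5, 46.2 and 47.6 CPM with vehicle and 98.5, 98.2 and 79.3 CPM with the combination (log2 fold change 1.01 ± 0.10, adjusted p = 0.00829). Chka, choline kinase alpha, which begins the synthesis of phosphatidylcholine, was at 73.2, 62.9 and 67.4 CPM against 122, 133 and 110.3 CPM (0.84 ± 0.09, adjusted p = 0.00829). Aoc2, a copper amine oxidase, was at 9.73, 9.37 and 10.9 CPM against 24.3, 24.3 and 20.1 CPM (1.20 ± 0.13, adjusted p = 0.00829). Rbm33, an RNA-binding protein, was at 77.8, 79 and 80.5 CPM against 149, 154 and 125 CPM (0.85 ± 0.11, adjusted p = 0.0113). In all 4, every combination library lay above the 9 other libraries, as it did for 2.74% of tested genes (1.21% lay below all 9). Ces2g, a carboxylesterase of the endoplasmic reticulum, was at 165, 153 and 169 CPM against 343, 329.8 and 276 CPM (0.96 ± 0.11, adjusted p = 0.00829). Of its tested relatives, which share much of their sequence with it, Ces2b (0.72 ± 0.19, adjusted p = 0.0475), Ces2e (0.59 ± 0.14, adjusted p = 0.0333) and Ces2f (0.78 ± 0.18, adjusted p = 0.0333) also rose, while Ces2c did not pass the test (0.26 ± 0.41, adjusted p = 0.716). Catsper4, a sperm cation channel subunit, had 5 counts in the 3 vehicle libraries and 73 in the 3 combination libraries, a ratio of 14.2 with a 95% counting interval of 5.82 to 45.1. Large increases outside the antibody genes were called in Lcn2, the iron-siderophore binding protein lipocalin 2, at 14.2, 5.46 and 7.79 CPM against 87.1, 67.1 and 28.8 CPM (2.74 ± 0.57, adjusted p = 0.0257), and in Saa3, an acute-phase serum amyloid, at 4.28, 2.77 and 3.24 CPM against 18.7, 25.4 and 14.3 CPM (2.51 ± 0.67, adjusted p = 0.0482). Of the 8 genes that open this account of increases together with Unc13d, Col11a2 and Oas1b (11 in all), 0 remained without any 1 vehicle library (adjusted p 0.0626 to 0.152), 8 without combination 1, 7 without combination 2 and 10 without combination 3, and 10 without anti-PD1 1 or regorafenib 1.

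**Figure D2:**
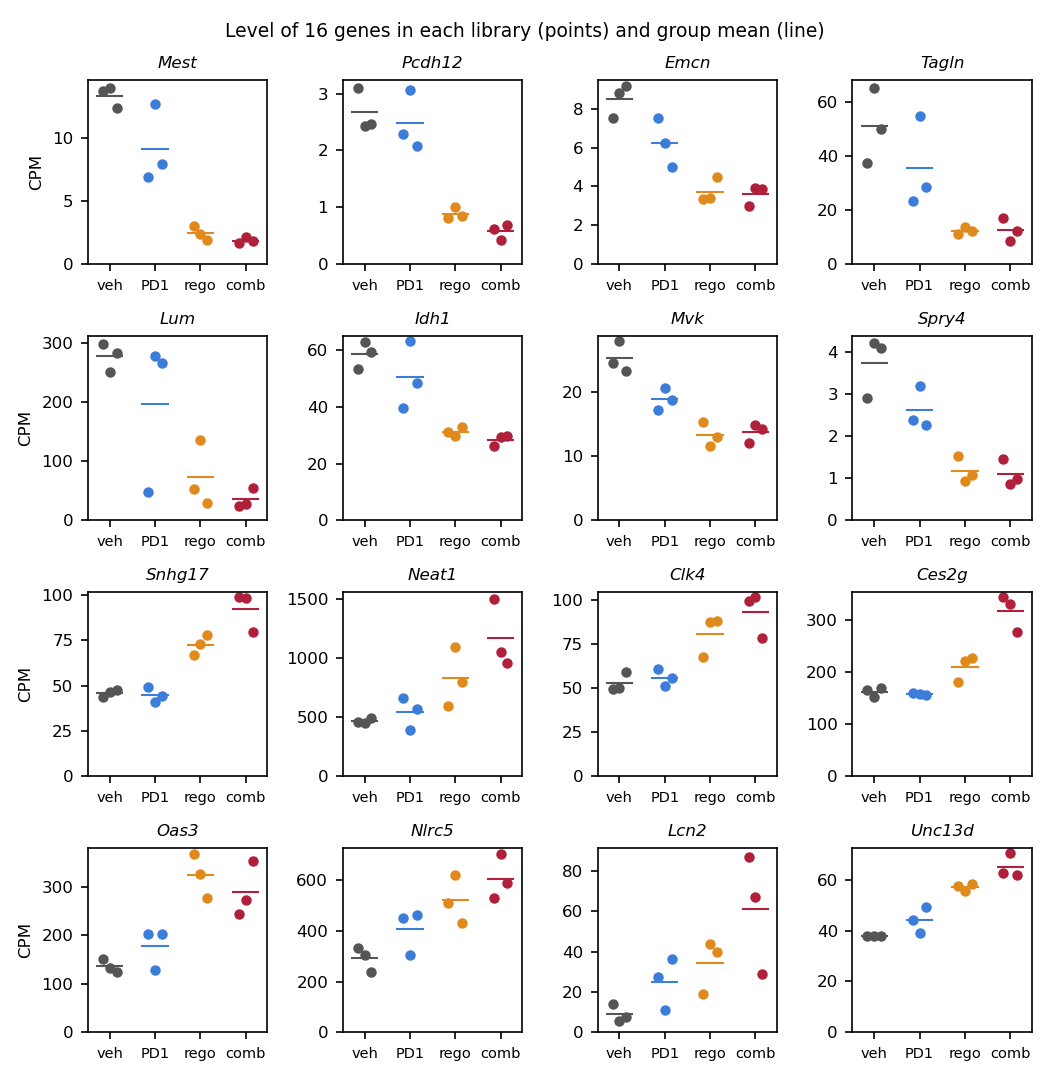
CPM of single genes in each of the 12 libraries (points) with the group means (lines), for vehicle, anti-PD1, regorafenib and the combination, each panel starting at 0. The 3 combination points of Mest lie between 1.63 and 2.12 CPM, below the vehicle points at 12.4 to 14.0, and those of Snhg17 between 79.3 and 98.5, above the vehicle points at 43.5 to 47.6.

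Several genes of sprouting vessels fell in the combination. Of 18 tested tip cell and angiogenesis genes, 4 fell and 0 rose (22.2% called, against 7.34% of all tested genes). In 11 all 3 combination values lay below all 3 vehicle values (61.1%, against 19.6% of all tested genes). The median log2 fold change of the list was -0.56, beside 0.02 for all genes. The 4 that fell were Pcdh12, Nid2, Kcne3 and Dll4. Nid2, nidogen 2 of the vascular basement membrane, was at 33.6, 36.5 and 30.8 CPM with vehicle and 9.15, 8.7 and 8.98 CPM with the combination (log2 fold change -1.91 ± 0.36, adjusted p = 0.0207). Kcne3, a potassium channel subunit found in tip cells, was at 2.56, 3.58 and 4.24 CPM against 1.5, 0.766 and 1.09 CPM (-1.63 ± 0.32, adjusted p = 0.0211). Dll4, the Notch ligand through which tip cells restrain their neighbours, was at 6.96, 7.23 and 6.44 CPM against 2.56, 2.65 and 4.42 CPM (-1.10 ± 0.28, adjusted p = 0.0422). Of 24 general endothelial genes, 4 fell and 0 rose (16.7% called, against 7.34% of all tested genes), and the median was -0.32. Emcn, the sialomucin endomucin of capillaries and veins, was at 7.51, 8.82 and 9.18 CPM against 3.0, 3.93 and 3.88 CPM (-1.24 ± 0.20, adjusted p = 0.0158). Gpihbp1, which holds lipoprotein lipase on the capillary wall, was at 9.61, 8.63 and 7.83 CPM against 3.58, 2.65 and 4.78 CPM (-1.24 ± 0.29, adjusted p = 0.0348). Tie1, an endothelial receptor kinase, was at 9.65, 12.3 and 11.3 CPM against 5.48, 7.41 and 7.75 CPM (-0.69 ± 0.16, adjusted p = 0.0333). Sox7, an endothelial transcription factor, was at 1.38, 1.36 and 1.47 CPM against 0.574, 0.592 and 0.942 CPM (-0.99 ± 0.25, adjusted p = 0.0416).

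Pecam1 and Cdh5, used as markers of endothelium, did not pass the test. Pecam1, an adhesion molecule of all endothelium, was at 27.2, 31.2 and 34.2 CPM with vehicle and 17.6, 28.8 and 35.3 CPM with the combination (-0.18 ± 0.23, adjusted p = 0.653). Cdh5, VE-cadherin, was at 22.9, 27.6 and 24.1 CPM against 14.7, 21.3 and 23.3 CPM (-0.33 ± 0.17, adjusted p = 0.234), so the groups overlapped for both. The VEGF ligands, receptors and co-receptors included no call among 11 tested members (1 of 11 higher and 1 of 11 lower at an unadjusted p under 0.05, shares below those of all tested genes). Their median was -0.03, -0.32 without combination 3 and 0.12 without combination 1. Kdr, the main VEGF receptor, was at 13.7, 16.6 and 15.6 CPM against 6.81, 9.19 and 15.9 CPM (-0.52 ± 0.39, adjusted p = 0.41). Flt1 was at 14.1, 17.4 and 16 CPM against 8.04, 9.05 and 15.6 CPM (-0.54 ± 0.37, adjusted p = 0.361). Vegfa was at 89.1, 126 and 61.3 CPM against 234, 146 and 112 CPM (0.83 ± 0.34, adjusted p = 0.144). For Kdr and Flt1, combination 1 and combination 2 lay below every vehicle library and combination 3 among them. Among 13 other receptor and RAF kinases known as regorafenib targets there was also no call (2 higher and 0 lower at an unadjusted p under 0.05), with Pdgfrb, on pericytes and fibroblasts, at 155, 147 and 154 CPM against 74.1, 57.8 and 109.8 CPM (-0.92 ± 0.43, adjusted p = 0.197). Of the 8 vessel genes that fell, 0 remained without any 1 vehicle library (adjusted p 0.064 to 0.128), 1 without combination 1, 1 without combination 2 and 8 without combination 3, and 6 without anti-PD1 2 or anti-PD1 3.

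The pericyte list, for the mural cells of capillaries, held 0 calls of 12 (0 higher and 5 lower at an unadjusted p under 0.05, median -0.37). Its smallest p belonged to a gene whose groups did not overlap: Rgs5, a pericyte regulator of G-protein signalling, at 26.5, 31.3 and 39.1 CPM against 13.7, 19.9 and 23.1 CPM (-0.77 ± 0.23, adjusted p = 0.0643). In the smooth muscle list 3 of 12 fell and 0 rose, while the median was 0.02 and the mean log2 difference from vehicle was below 0, at -0.43, -0.40 and -0.29 in the combination libraries. Without combination 3 the median of this list was -0.29. Tagln, the actin-binding protein transgelin, was at 37.5, 65.4 and 50.1 CPM with vehicle and 16.9, 8.56 and 12.4 CPM with the combination (log2 fold change -2.02 ± 0.35, adjusted p = 0.0165). Myl9, a myosin light chain, was at 33.4, 40.1 and 31.7 CPM against 11, 8.74 and 13.8 CPM (-1.65 ± 0.31, adjusted p = 0.0207). Actg2, enteric smooth muscle actin, was at 1.72, 7.45 and 1.97 CPM against 1.1, 0.487 and 0.507 CPM (-2.42 ± 0.58, adjusted p = 0.036); its decrease rested in part on vehicle 2, without which the log2 fold change was -1.42. Acta2, smooth muscle actin, did not pass the test at 129.8, 219 and 140.4 CPM against 102, 104 and 119.8 CPM (-0.59 ± 0.21, adjusted p = 0.0993), and Myh11, the smooth muscle myosin heavy chain, overlapped between the groups at 2.35, 4.28 and 4.05 CPM against 3.18, 5.19 and 4.09 CPM (0.22 ± 0.28, adjusted p = 0.632). For Tagln, 1349 of 1988 exonic bases are shared with the opposite strand. Of the 3 contractile calls, 0 remained without any 1 vehicle library (adjusted p 0.064 to 0.117), 0 without combination 1, 0 without combination 2 and 2 without combination 3, and all 3 without any 1 single-treatment library.

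Matrix and fibroblast lists had negative medians, with few members past the threshold. In the fibroblast list 3 of 30 fell and 0 rose, 13 were lower at an unadjusted p under 0.05, and the median was -0.85. Lum, the small proteoglycan lumican of collagen fibrils, was at 299, 252 and 284 CPM with vehicle and 24.8, 27.6 and 55.4 CPM with the combination (log2 fold change -2.95 ± 0.69, adjusted p = 0.0349). Omd, its relative osteomodulin, was at 37.6, 16 and 20.3 CPM against 1.77, 1.25 and 2.32 CPM (-3.79 ± 0.97, adjusted p = 0.043). Lox, the lysyl oxidase that cross-links collagen, was at 130.0, 99.97 and 134 CPM against 50.9, 53.3 and 64.9 CPM (-1.10 ± 0.29, adjusted p = 0.048). All 3 were at least 10 CPM in every vehicle library, and no combination value reached the lowest vehicle value. Fibroblast members that did not pass the test included Sparc, a collagen-binding matrix protein, at 4040.2, 3114 and 3472 CPM against 619.9, 752 and 1199 CPM (-2.05 ± 0.56, adjusted p = 0.0525). Cdh11, a mesenchymal cadherin, was at 181, 156 and 149.9 CPM against 34.7, 21.3 and 70.2 CPM (-1.95 ± 0.56, adjusted p = 0.0588). Pdgfra, the PDGF receptor alpha of fibroblasts, was at 78, 69.6 and 83.1 CPM against 64.4, 50.7 and 84.8 CPM (-0.21 ± 0.30, adjusted p = 0.689), and its groups overlapped.

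Of 38 tested collagen chains, 4 fell and 2 rose (15.8% called, against 7.34% of all tested genes), with a median of -0.76. At an unadjusted p under 0.05, 13 were lower and 5 higher, against 12.5% and 15.4% of all tested genes. Among the lower ones, Col8a2 and Col8a1, the short-chain collagens of vessel and basement membranes, were at 5.83, 7.27 and 5.67 CPM against 0.309, 0.975 and 0.398 CPM (-3.45 ± 0.50, adjusted p = 0.0122) and 321, 319 and 351 CPM against 162, 134 and 189 CPM (-1.03 ± 0.23, adjusted p = 0.0318). Col13a1, a transmembrane collagen, was at 4.03, 4.98 and 3.7 CPM against 1.02, 0.80 and 1.67 CPM (-1.86 ± 0.29, adjusted p = 0.0122). Col14a1, which binds the surface of collagen fibrils, was at 55.4, 44 and 69.9 CPM against 14.2, 10.5 and 20.2 CPM (-1.91 ± 0.43, adjusted p = 0.0327). Without combination 2 the log2 fold change of Col8a2 was -4.13. In the other direction, Col11a2, a chain of cartilage collagen, was at 8.93, 8.37 and 7.94 CPM against 19.8, 22 and 16.3 CPM (1.20 ± 0.14, adjusted p = 0.0101). Col20a1 was at 5.58, 5.35 and 5.09 CPM against 23.4, 15.6 and 10.6 CPM (1.63 ± 0.38, adjusted p = 0.0333). The abundant interstitial chains had non-overlapping groups without passing the test: Col1a1 stood at 12587, 9810.0 and 12106 CPM with vehicle and 2278, 1689.6 and 4966 CPM with the combination (-1.95 ± 0.73, adjusted p = 0.119). Col3a1 was at 8653, 5379.7 and 7730.2 CPM against 1179, 1055 and 3169 CPM (-2.01 ± 0.77, adjusted p = 0.126). In anti-PD1 1 and in 2 of the regorafenib libraries Col1a1 was also low, at 2411, 4256 and 2003 CPM, against 12386 CPM in regorafenib 2. The TGF-beta and mesenchymal transition list held 0 calls of 20 (3 higher and 8 lower at an unadjusted p under 0.05, median -0.45), with the smallest p-values in Cdh2, N-cadherin, at 5.33, 4.46 and 4.63 CPM against 1.06, 0.592 and 1.59 CPM (-2.15 ± 0.59, adjusted p = 0.0525). Snai1, a repressor of E-cadherin, was at 7.09, 5.9 and 7.75 CPM against 2.92, 3.06 and 1.56 CPM (-1.46 ± 0.41, adjusted p = 0.0565).

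In a bulk tumour, fewer cells of a type and less RNA per cell cannot be told apart. The 4 tested Y-linked genes, carried by the male host (whether Sq-1979 carries them is not given in the sources used here), had a mean log2 CPM of 2.939, 2.596 and 2.775 in the vehicle libraries and of 1.987, 2.262 and 2.994 in the combination libraries, so combination 1 and combination 2 were lower and combination 3 higher than vehicle, and none of the 4 passed the test. With that Y-linked level as a covariate the list medians were -0.75 for fibroblasts, -0.44 for collagens, -0.38 for tip cells and -0.27 for endothelium. The fit with that covariate called more of all tested genes, 2303 (13.6%), and more in these lists: 15 collagens in place of 6, 11 fibroblast genes in place of 3, and 4 TGF-beta and transition genes in place of 0. DESeq2, with 15.3% of its tested genes called, gave 13, 11 and 7. Of the 9 collagen and fibroblast calls, 0 remained without any 1 vehicle library (adjusted p 0.064 to 0.138), 1 without combination 1, 2 without combination 2 and 7 without combination 3, and 7 to 8 without anti-PD1 2, anti-PD1 3 or regorafenib 1.

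**Figure D3:**
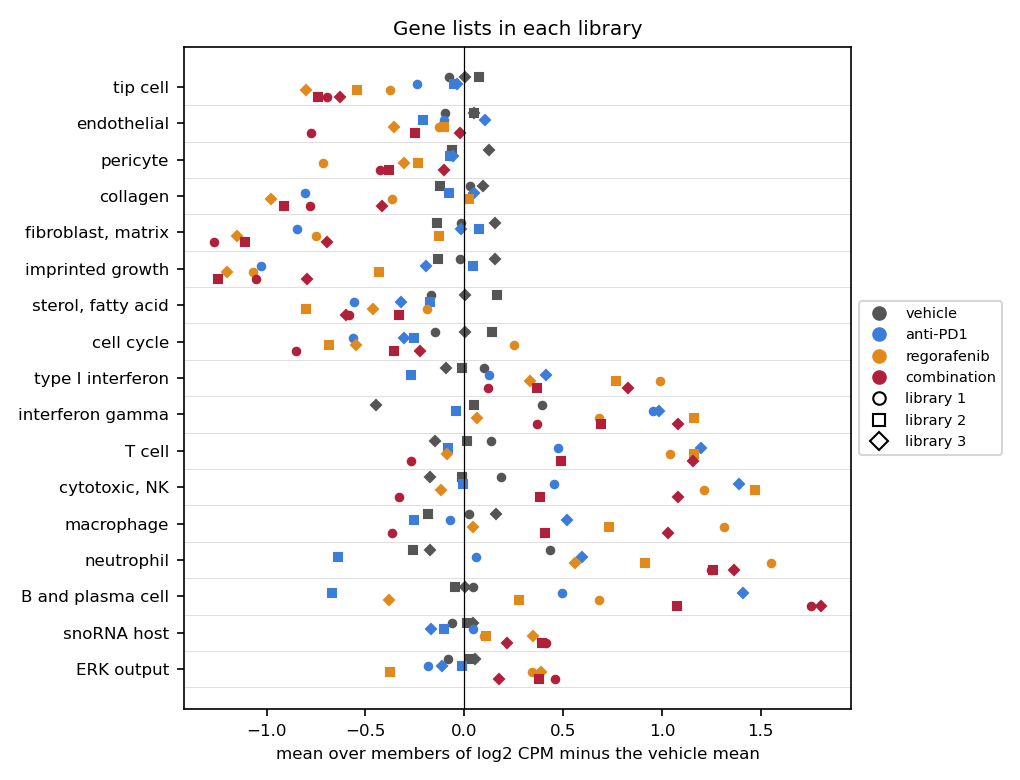
For each gene list (rows), the mean over its tested members of log2 CPM minus the vehicle mean, in each library (points coloured by group). The fibroblast points of the combination lie at -1.27, -1.11 and -0.69 and those of the neutrophil list at 1.25, 1.26 and 1.36, while the T cell points of the combination spread from -0.27 to 1.16.

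Imprinted growth genes form a small list of 14 tested members in which 1 fell, Mest, and 1 rose. The share called was 14.3%, against 7.34% of all tested genes, and the median was -1.18. In 8 members the combination values were all below the vehicle values (57.1%, against 19.6% of all tested genes). The member that rose was Igf2r, the receptor that clears IGF2, at 68.4, 72.2 and 69.1 CPM against 97.7, 105 and 86.5 CPM (0.46 ± 0.08, adjusted p = 0.0174). Peg3, a zinc finger gene, did not pass the test at 20.1, 21.8 and 20.2 CPM against 7.64, 4.56 and 10.6 CPM (-1.45 ± 0.39, adjusted p = 0.0508), nor did the noncoding H19 at 104, 68.7 and 112 CPM against 40.5, 11 and 45.5 CPM (-1.55 ± 0.63, adjusted p = 0.144). Both had non-overlapping groups, and in both the regorafenib libraries were also below the vehicle libraries. Without any 1 vehicle library, combination 1 or combination 2, Igf2r had an adjusted p between 0.0602 and 0.0876.

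The list with the most calls was sterol and fatty acid synthesis. Cells make sterols from acetyl-CoA through mevalonate, and the enzymes of the route are switched on together by SREBP2 when sterols run short. Of 32 tested genes of sterol and fatty acid synthesis, 8 fell and 1 rose (28.1% called, against 7.34% of all tested genes). At an unadjusted p under 0.05, 20 were lower, against 12.5% of all tested genes. In 29 the log2 fold change was negative, and the median was -0.55. Below are the 250 bases before the transcription start of 2 of the genes that fell (RefSeq annotation, GRCm38.p6, each on its gene's strand), shown because the CCAAT boxes in capitals for Mvk, and the sterol regulatory element in capitals for Hmgcs1, are letters known from the promoters of this route.
Mvk (chr5:114444019-114444268): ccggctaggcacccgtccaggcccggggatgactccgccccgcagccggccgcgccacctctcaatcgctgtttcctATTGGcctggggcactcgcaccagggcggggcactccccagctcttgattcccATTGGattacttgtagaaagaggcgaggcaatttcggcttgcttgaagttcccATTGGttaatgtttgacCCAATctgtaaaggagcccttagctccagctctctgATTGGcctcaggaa
Hmgcs1 (chr13:119690101-119690350): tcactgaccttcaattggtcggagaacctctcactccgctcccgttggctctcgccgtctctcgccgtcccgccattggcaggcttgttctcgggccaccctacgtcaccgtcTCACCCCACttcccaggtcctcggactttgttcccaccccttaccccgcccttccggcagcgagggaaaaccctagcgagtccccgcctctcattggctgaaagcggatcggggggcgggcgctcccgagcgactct
The letters CCAAT on either strand were found in the windows of 21 of the 23 tested genes of the list that have one, among them all 8 of the 8 called genes with a window, against 42.3% of the 11708 tested genes with a window; a window runs from 250 bases before to 50 after a start. The sterol regulatory element, searched as TCACNCCAC on either strand, was in 1 of the 23, Hmgcs1, against 1.45%. A match is a description of the letters, and a missing match says only that these letters are not in this window.

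The decreases ran through the pathway. Hmgcs1, the cytosolic HMG-CoA synthase that begins it, was at 209, 206 and 205 CPM with vehicle and 162, 138 and 123 CPM with the combination (log2 fold change -0.55 ± 0.14, adjusted p = 0.0455). Mvk, mevalonate kinase, was at 24.7, 28 and 23.4 CPM against 12, 15 and 14.3 CPM (-0.88 ± 0.14, adjusted p = 0.0124). Cyp51, the lanosterol demethylase, was at 73.5, 104 and 84.6 CPM against 38.8, 53 and 41.5 CPM (-0.97 ± 0.25, adjusted p = 0.0438). The later enzymes Nsdhl, Hsd17b7 and Ebp had log2 fold changes of -0.93, -0.96 and -0.57 (adjusted p 0.0284, 0.0491 and 0.022). For these genes no combination value reached the lowest vehicle value. Scd2, a stearoyl-CoA desaturase, was at 149, 193 and 147 CPM against 96.6, 92.6 and 110.0 CPM (-0.71 ± 0.16, adjusted p = 0.0311), and Idh1, given above, belongs to the list as a source of NADPH. Scd4, another stearoyl-CoA desaturase, is no member of the list and was singled out after its values were seen. It fell, at 22.9, 15.8 and 27 CPM against 2.21, 1.81 and 4.71 CPM (-2.91 ± 0.45, adjusted p = 0.0132), with an adjusted p of 0.0559 to 0.0749 without any 1 vehicle library, combination 1 or combination 2. Tm7sf2, a sterol C14 reductase, went the other way, at 10.7, 12.1 and 13.4 CPM against 26.3, 25.7 and 16.8 CPM (0.93 ± 0.21, adjusted p = 0.0333). The fatty acid synthase Fasn overlapped between the groups at 227, 250.6 and 207 CPM against 253, 300.2 and 208 CPM (0.15 ± 0.14, adjusted p = 0.505). For Hmgcs1, 557 of 4594 exonic bases are shared with the opposite strand. Of the 9 calls, 0 remained without any 1 vehicle library (adjusted p 0.064 to 0.143), 0 without combination 1, 0 without combination 2 and 7 without combination 3, and 6 to 8 without anti-PD1 2, anti-PD1 3, regorafenib 1 or regorafenib 3.

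By count, interferon-stimulated genes were the immune list with the most increases. By share the B and plasma cell list was higher, with 22.2% of 18 against 20.6% of 34. Type I interferons act through a complex of transcription factors that binds the interferon-stimulated response element and switches on antiviral effectors. Of 34 tested genes of this response, 7 rose and 0 fell, against 5.03% of all tested genes higher and 2.32% lower. In 32 the log2 fold change was positive, and the median was 0.47. Without combination 3 the median was 0.24 and 2 members were called. With the Y-linked covariate 13 were called, and 13.6% of all tested genes. Against regorafenib alone the list held 0 calls, with a median of -0.24. The upstream 250 bases of 2 that rose are shown because each holds that element, in capitals.
Oas3 (chr5:120777660-120777909): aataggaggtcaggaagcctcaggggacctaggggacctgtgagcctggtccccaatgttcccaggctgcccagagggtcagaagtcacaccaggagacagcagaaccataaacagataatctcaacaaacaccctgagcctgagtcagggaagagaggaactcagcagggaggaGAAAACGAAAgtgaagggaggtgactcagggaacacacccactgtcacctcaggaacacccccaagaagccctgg
Stat2 (chr10:128270248-128270497): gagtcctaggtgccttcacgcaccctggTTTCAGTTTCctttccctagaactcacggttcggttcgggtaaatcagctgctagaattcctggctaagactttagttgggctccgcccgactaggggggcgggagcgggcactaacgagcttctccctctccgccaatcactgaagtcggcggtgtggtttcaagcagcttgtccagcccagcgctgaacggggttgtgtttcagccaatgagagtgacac
The element, searched on either strand as 2 copies of GAAA separated by any 2 bases, was in the windows of 14 of the 23 tested members that have one, and of 2 of the 4 called members that have one, against 3.95% of tested genes with a window (462 of 11708).

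The members that rose were mostly sensors and effectors of antiviral defence. Oas3, Oas2 and Oas1b belong to the oligoadenylate synthetases, which activate RNase L on double-stranded RNA. Oas3 was at 152, 134 and 125 CPM with vehicle and 244, 273 and 353 CPM with the combination (log2 fold change 1.08 ± 0.20, adjusted p = 0.0189). Oas2 was at 114, 106 and 104 CPM against 167, 267 and 306 CPM (1.19 ± 0.26, adjusted p = 0.0305). Oas1b, annotated as a polymorphic pseudogene, was at 32.5, 31.6 and 28.3 CPM against 56.8, 73.1 and 63.5 CPM (1.07 ± 0.13, adjusted p = 0.0113). Their relative Oasl2 was at 429, 390.0 and 383 CPM against 539, 657 and 707 CPM (0.66 ± 0.18, adjusted p = 0.0481). Mx2, an antiviral GTPase, was at 59.9, 59.9 and 56.5 CPM against 81.1, 88.4 and 114 CPM (0.69 ± 0.16, adjusted p = 0.0333). Xaf1, an antagonist of the apoptosis inhibitor XIAP, was at 143, 124 and 119.7 CPM against 175, 208 and 243 CPM (0.69 ± 0.16, adjusted p = 0.0348). Stat2, a subunit of that transcription factor complex, was at 284, 259 and 214 CPM against 354, 419 and 462 CPM (0.71 ± 0.18, adjusted p = 0.0448). In each of the 7 the 3 combination values lay above the 3 vehicle values, and the regorafenib libraries lay in the same range, with Oas3 at 368, 328 and 277 CPM. Widely used members of the list overlapped between the groups: Isg15, a ubiquitin-like modifier, was at 113, 112 and 99.7 CPM against 84, 91.9 and 183 CPM (0.14 ± 0.34, adjusted p = 0.816). Ifit1, which binds viral RNA, was at 471, 422 and 418 CPM against 482, 431 and 689 CPM (0.29 ± 0.21, adjusted p = 0.387). The Oas1 genes share near-identical stretches, so their counts could be split between them.

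Genes of the interferon gamma response and of antigen presentation held few calls. The shares were 4.0% of the interferon gamma list and 4.76% of the MHC class I list, against 7.34% of all tested genes. Of 25 interferon gamma genes 1 rose (median 0.64, with 11 higher and 0 lower at an unadjusted p under 0.05), and the same gene was the 1 call of 21 MHC class I genes (median 0.21). This was Nlrc5, the transactivator of MHC class I genes, at 334, 305 and 237 CPM with vehicle and 528, 702 and 589 CPM with the combination (log2 fold change 1.05 ± 0.20, adjusted p = 0.0207). In 8 of the 21, Nlrc5 included, all 3 combination values lay above the vehicle values (38.1%, against 19.6% of all tested genes). B2m and H2-K1 overlapped between the groups, with B2m at 2731, 2613 and 2479.7 CPM against 2399.5, 2414 and 2751 CPM (-0.05 ± 0.12, adjusted p = 0.817) and H2-K1 at 2856, 2849 and 2569 CPM against 2709, 3136 and 3308 CPM (0.15 ± 0.13, adjusted p = 0.475). Gbp9 and Gbp4, guanylate-binding GTPases that act on intracellular pathogens and share similar stretches of sequence, were above vehicle in all 3 combination libraries without passing the test. Gbp9 was at 289, 204 and 186 CPM against 432, 542 and 580.5 CPM (1.20 ± 0.33, adjusted p = 0.0548) and Gbp4 at 209, 154 and 94.6 CPM against 329, 475 and 501 CPM (1.51 ± 0.45, adjusted p = 0.0664). Cxcl9, a T cell attractant, overlapped between the groups at 117, 80.9 and 36.6 CPM against 56.6, 119 and 179.9 CPM (0.60 ± 0.59, adjusted p = 0.54). No MHC class II gene of 12 passed the test (0 at an unadjusted p under 0.05; median 0.29, and -0.10 without combination 3), with H2-Ab1 at 590.2, 504 and 446 CPM against 309.9, 589 and 966 CPM (0.28 ± 0.49, adjusted p = 0.749). Of the 8 interferon and MHC calls, 0 remained without any 1 vehicle library (adjusted p 0.064 to 0.164), 1 without combination 1, 0 without combination 2 and 3 without combination 3, and 6 to 7 without anti-PD1 3, regorafenib 1, regorafenib 2 or regorafenib 3.

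Predicted genes and antigen receptor segments aside, the largest increases among called genes with a mean of at least 1 CPM were in constant regions of antibody genes. Plasma cells transcribe these at very high levels. Ighg3, the IgG3 heavy chain constant region (ENSMUSG00000076615.4, chromosome 12, 113356224 to 113361232, minus strand), had 1, 0 and 1 counts in the vehicle libraries and 50, 223 and 84 in the combination libraries, a ratio of 174 with a 95% counting interval of 47.7 to 1440 (adjusted p = 0.0113). Ighg2b, for IgG2b, was at 2.47, 2.25 and 1.66 CPM with vehicle and 134, 5.5 and 13.5 CPM with the combination (log2 fold change 4.58 ± 1.09, adjusted p = 0.0352). Counts assigned to Ighg2c, annotated for IgG2c in GRCm38, were at 0.545, 0.148 and 1.39 CPM against 20.2, 21.2 and 23 CPM (4.95 ± 1.33, adjusted p = 0.0499). The host strain was C3H/HeN, and which of its constant regions gave these reads was not tested. Igkc, the kappa light chain, was at 5.45, 2.43 and 2.66 CPM against 169, 36.9 and 63 CPM (4.68 ± 1.18, adjusted p = 0.0421). All 3 combination libraries were above all 3 vehicle libraries for the 4 genes, but the amounts were uneven: combination 1 led Ighg2b and Igkc, combination 2 led Ighg3, and Ighg2c was even. Without combination 1 the log2 fold change of Ighg2b was 2.15 and that of Igkc 3.83, and without combination 2 that of Ighg3 was 6.4. Without vehicle 3 the log2 fold change of Ighg2c was 5.96. In the other arms Ighg2c reached 26.8 CPM in anti-PD1 3, above every combination library, while Ighg3 was at most 0.251 CPM.

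Other B lineage genes gave less. The list of B and plasma cell genes had 18 tested members, of which these 4 rose and 0 fell. The share called was 22.2%, against 7.34% of all tested genes. The median was 0.96, and 0.26 without combination 3. Jchain, which joins IgA and IgM, did not pass the test at 1.64, 0.406 and 1.16 CPM against 11, 2.51 and 11.7 CPM (2.98 ± 1.03, adjusted p = 0.0954). Ms4a1 and Cd79a, defining genes of B cells, and Mzb1 and Tnfrsf17, of plasma cells, had too few reads to be tested. The heavy chain constant regions are similar in sequence, and reads that fit more than 1 of them could be split or dropped by the counting. Of the 4 calls, 0 remained without any 1 vehicle library (adjusted p 0.064 to 0.151), 1 without combination 1, 1 without combination 2 and 3 without combination 3, and 3 without anti-PD1 1, regorafenib 1, regorafenib 2 or regorafenib 3.

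**Figure D4:**
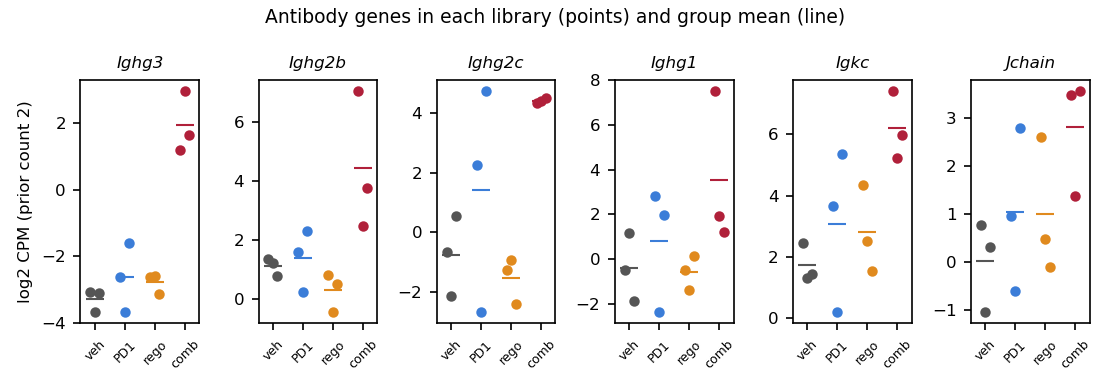
Log2 CPM (prior count 2) of antibody genes in each of the 12 libraries (points) with the group mean (line). The 3 combination points of Ighg3 lie above all 9 others, whereas for Ighg2c anti-PD1 3 lies with the combination points.

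Neutrophil genes had the highest median of the 35 lists, 1.42. Of 19 tested members 2 were higher and 0 lower (10.5% called, against 7.34% of all tested genes). In 12 the combination values all lay above the vehicle values (19.6% of all tested genes did). With the Y-linked covariate 9 of the 19 were called, against 13.6% of all tested genes, and without combination 3, 1. Lcn2, from neutrophil granules and from stressed epithelium, is given above. Clec4d, a C-type lectin of neutrophils and macrophages, was at 0.923, 0.443 and 0.424 CPM with vehicle and 2.17, 2.37 and 2.39 CPM with the combination (log2 fold change 1.95 ± 0.51, adjusted p = 0.046). The list also held S100a8 and S100a9, the calprotectin subunits, at 1.26, 0.48 and 1.2 CPM against 2.7, 3.06 and 4.02 CPM (1.74 ± 0.66, adjusted p = 0.121) and 2.52, 0.627 and 1.62 CPM against 5.66, 5.88 and 8.59 CPM (2.08 ± 0.71, adjusted p = 0.094). Cxcr2, the chemokine receptor of neutrophils, was at 2.22, 0.959 and 0.887 CPM against 2.43, 3.41 and 6.16 CPM (1.57 ± 0.75, adjusted p = 0.203). None of these 3 passed the test. Ly6g, Ngp and Camp, defining genes of mouse neutrophils, had too few reads to be tested. Unlike the T cell and cytotoxic lists, this list was similar in the 3 combination libraries. Its mean log2 differences from vehicle were 1.25, 1.26 and 1.36, and 0.43, -0.26 and -0.17 in the vehicle libraries. With regorafenib alone they were 1.55, 0.91 and 0.56. The B and plasma cell list was also above vehicle in all 3 combination libraries, at 1.756, 1.078 and 1.805.

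T cell and cytotoxic genes spread widely between the combination libraries. The mean log2 difference from vehicle over 22 T cell genes was -0.27, 0.49 and 1.16 in combination 1, 2 and 3, and 0.13, 0.01 and -0.15 in the vehicle libraries. Ptprc, the pan-leukocyte marker CD45, showed the same order at 70.8, 60.9 and 66 CPM with vehicle and 50.8, 90.2 and 146 CPM with the combination (0.54 ± 0.51, adjusted p = 0.514). Cd8a, the co-receptor of cytotoxic T cells, was at 15.8, 15.6 and 13.3 CPM against 12.1, 22.5 and 38.1 CPM (0.70 ± 0.41, adjusted p = 0.284). Cd4, of helper T cells, was at 26.4, 20.7 and 21.3 CPM against 17.3, 20 and 53.3 CPM (0.41 ± 0.56, adjusted p = 0.67). Foxp3, the regulatory T cell factor, was at 4.15, 3.17 and 2.82 CPM against 3.18, 6.33 and 11.6 CPM (1.06 ± 0.55, adjusted p = 0.234). In all 3 the groups overlapped, and combination 3 was the highest and combination 1 the lowest of the combination libraries. Ifng was at 0.587, 0.59 and 0.424 CPM against 0.707, 1.04 and 1.99 CPM (1.23 ± 0.54, adjusted p = 0.17) and Gzmb, granzyme B, at 14.9, 12.1 and 6.67 CPM against 16.8, 13.7 and 35.4 CPM (0.97 ± 0.62, adjusted p = 0.33), and neither passed the test. The list median was 0.65 with all libraries and 0.16 without combination 3; for 21 cytotoxic genes it was 0.54 and 0.08. With the Y-linked covariate 7 T cell and 5 cytotoxic genes were called, and 13.6% of all tested genes.

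Within these lists 3 genes rose and 0 fell. The shares called were 4.55% of the T cell list and 9.52% of the cytotoxic list, near the 7.34% of all tested genes. Prf1, perforin, was at 4.24, 3.5 and 1.89 CPM with vehicle and 5.57, 8.94 and 12.6 CPM with the combination (log2 fold change 1.5 ± 0.39, adjusted p = 0.0464). Unc13d, the priming factor for release of cytotoxic granules, was at 37.8, 37.8 and 37.8 CPM against 62.4, 70.6 and 61.7 CPM (0.78 ± 0.09, adjusted p = 0.00951). Ikzf2, the transcription factor Helios, was at 34.9, 28.7 and 31.2 CPM against 49.3, 56.5 and 46.4 CPM (0.68 ± 0.11, adjusted p = 0.0133). All 3 were above every vehicle library in each combination library, combination 1 included.

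Of 26 checkpoint genes 1 rose and 0 fell (3.85% called, against 7.34% of all tested genes). At an unadjusted p under 0.05, 6 were higher and 0 lower. The median was 0.46, and 0.02 without combination 3. With the Y-linked covariate 13 were called, and 13.6% of all tested genes. The 1 that rose was Pvr, the poliovirus receptor that binds TIGIT and CD226, at 15.9, 15.6 and 14.1 CPM against 28.3, 24 and 20.4 CPM (0.67 ± 0.14, adjusted p = 0.0245). Cd274, which encodes PD-L1, was above vehicle in all 3 combination libraries without passing the test, at 90.3, 71.2 and 45.5 CPM with vehicle and 137, 155 and 178 CPM with the combination (log2 fold change 1.18 ± 0.39, adjusted p = 0.0841). Its level in anti-PD1 1 and anti-PD1 3 was 226 and 162 CPM. The co-stimulatory receptor gene Tnfrsf9 (4-1BB) was at 8.05, 7.27 and 4.24 CPM against 10.9, 12.3 and 23.7 CPM (1.26 ± 0.43, adjusted p = 0.0912), and the inhibitory receptor genes Tigit and Ctla4 at 4.78, 3.87 and 3.82 CPM against 5.21, 8.39 and 16.1 CPM (1.25 ± 0.48, adjusted p = 0.128) and 3.44, 2.4 and 2.12 CPM against 3.27, 7.07 and 12.4 CPM (1.52 ± 0.60, adjusted p = 0.134). Pdcd1, which encodes PD-1, overlapped between the groups at 6.88, 5.9 and 4.71 CPM against 5.88, 8.0 and 16.9 CPM (0.82 ± 0.43, adjusted p = 0.244). Of the 4 T cell, cytotoxic and checkpoint calls, 0 remained without any 1 vehicle library (adjusted p 0.064 to 0.152), 1 without combination 1, 1 without combination 2 and 3 without combination 3, and 3 without anti-PD1 1, anti-PD1 3, regorafenib 2 or regorafenib 3.

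The macrophage and dendritic cell lists held no call. Of 28 macrophage genes 0 passed the test (4 higher and 0 lower at an unadjusted p under 0.05, a share close to the 15.4% of all tested genes; median 0.34, and 0.07 without combination 3). With the Y-linked covariate 8 macrophage genes and 1 dendritic cell gene were called, and with DESeq2 1 and 0. These fits called 13.6% and 15.3% of all tested genes. Il1b, the inflammatory cytokine interleukin 1 beta, came closest at 16.6, 13.5 and 12.1 CPM against 29.7, 22.4 and 25.6 CPM (0.88 ± 0.24, adjusted p = 0.0512). Csf1r, the macrophage growth factor receptor, was at 96.2, 78.2 and 94.1 CPM against 47.7, 79.9 and 124 CPM (-0.09 ± 0.42, adjusted p = 0.913). Arg1, the arginase of suppressive myeloid cells, was at 1.38, 0.959 and 0.848 CPM against 2.12, 1.91 and 6.09 CPM (1.67 ± 0.87, adjusted p = 0.237). Of 16 dendritic cell genes 0 passed (1 higher and 0 lower at an unadjusted p under 0.05; median 0.17, and -0.04 without combination 3). Of 31 chemokines and their kin 2 rose and 0 fell (6.45% called, a share close to the 7.34% of all tested genes). Ccl3, a macrophage inflammatory protein, was at 2.14, 1.48 and 1.7 CPM against 3.0, 5.01 and 6.01 CPM (1.40 ± 0.37, adjusted p = 0.0471). Ccl25, known for drawing lymphocytes to the thymus and gut, was at 7.93, 7.56 and 7.17 CPM against 10.4, 13.5 and 10.5 CPM (0.60 ± 0.13, adjusted p = 0.0303). The chemokine median was 0.38 and turned to -0.22 without combination 3. Of Lcn2, Clec4d, Ccl3 and Ccl25, 0 remained without any 1 vehicle library (adjusted p 0.0725 to 0.162), 0 without combination 1, 0 without combination 2 and 2 without combination 3, and 3 without anti-PD1 1, anti-PD1 2, anti-PD1 3 or regorafenib 2.

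Feedback genes of the ERK pathway, which growth factor signalling switches on, leaned higher, with calls both ways. Of 22 tested genes 2 rose and 1 fell (13.6% called, against 7.34% of all tested genes). The log2 fold change was positive in 19 and negative in 3. The median was 0.43, and 0.18 with the Y-linked covariate. All 3 combination values lay above the vehicle values in 10 genes (45.5%) and below in 2 (9.09%), against 19.6% of all tested genes each way. Spry4, a feedback inhibitor of receptor signalling, fell from 2.89, 4.21 and 4.09 CPM with vehicle to 1.46, 0.87 and 0.978 CPM (log2 fold change -1.76 ± 0.29, adjusted p = 0.0152). Its regorafenib values were 1.52, 0.923 and 1.07 CPM. Dusp4, a phosphatase that removes phosphate from ERK, rose at 6.04, 5.87 and 5.86 CPM against 14.7, 11.2 and 8.37 CPM (0.95 ± 0.24, adjusted p = 0.0431), and so did Spred3, another inhibitor of the route, at 2.27, 2.03 and 3.2 CPM against 4.82, 5.71 and 4.96 CPM (1.05 ± 0.26, adjusted p = 0.0383). Dusp6, the cytosolic ERK phosphatase, missed the threshold at 125, 119.6 and 137 CPM against 179, 208 and 179 CPM (0.57 ± 0.16, adjusted p = 0.0511). Among 12 tested EGF receptor family genes 1 rose and 0 fell (8.33% called, a share close to the 7.34% of all tested genes). It was Egf itself, at 2.1, 1.73 and 2.24 CPM against 4.11, 4.07 and 3.26 CPM (0.91 ± 0.20, adjusted p = 0.0295), with 1107 of 11275 exonic bases shared with the opposite strand. Of these 4 calls, 0 remained without any 1 vehicle library (adjusted p 0.064 to 0.138), 0 without combination 1, 0 without combination 2 and 3 without combination 3, and 3 without anti-PD1 2, anti-PD1 3 or regorafenib 3.

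Genes of squamous identity were called at about the share of all tested genes. Of 28 keratinocyte genes 1 rose and 1 fell (7.14%, against 7.34% of all tested genes). The list median was 0.05, and -0.04 without combination 1. Krt14, a basal keratin, was at 4320.0, 5102 and 4618 CPM with vehicle and 3166, 2287 and 3229 CPM with the combination (log2 fold change -0.69 ± 0.18, adjusted p = 0.0429). Itgb4, the hemidesmosome integrin, was at 931, 982 and 868 CPM against 1585, 1702 and 1199.9 CPM (0.69 ± 0.19, adjusted p = 0.0489). Neither call remained without any 1 vehicle library, combination 1, combination 2 or anti-PD1 3 (adjusted p 0.0534 to 0.185), and 1 remained without anti-PD1 1 or anti-PD1 2. In the list of cornified layer genes 0 of 14 passed the test (1 higher and 4 lower at an unadjusted p under 0.05, median -0.40), with Krtdap, a protein of differentiating keratinocytes, at 14.8, 17.3 and 21.8 CPM against 7.73, 4.94 and 8.37 CPM (-1.36 ± 0.44, adjusted p = 0.0789). Proliferation genes held 0 calls of 30 (0 higher and 3 lower at an unadjusted p under 0.05) with a median of -0.42. In 13 all 3 combination libraries lay below vehicle (43.3%, against 19.6% of all tested genes). Cdkn2a, which encodes inhibitors of the cell cycle, was at 7.21, 7.67 and 2.93 CPM against 0.663, 0.348 and 1.05 CPM (-3.10 ± 1.04, adjusted p = 0.0893) and Ube2c, a mitotic ubiquitin-conjugating enzyme, at 56.1, 72.6 and 68 CPM against 26.8, 45.5 and 43.9 CPM (-0.76 ± 0.29, adjusted p = 0.122). Mki67, the proliferation marker Ki-67, was at 295, 409 and 334 CPM against 245, 405 and 397 CPM (0.01 ± 0.27, adjusted p = 0.98). The hypoxia list held 0 calls of 28 tested identifiers for 27 names (3 higher and 0 lower at an unadjusted p under 0.05), and its scores, the members' mean log2 differences from vehicle, were 0.68, 0.21 and -0.06 in the combination against -0.07, 0.29 and -0.22 with vehicle; Car9, a carbonic anhydrase induced by hypoxia, was at 40.4, 80.1 and 40.8 CPM against 177, 169.9 and 61.6 CPM (1.34 ± 0.60, adjusted p = 0.178). The ATF4 stress response list held 0 of 24 (1 higher and 4 lower at an unadjusted p under 0.05, median -0.13).

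Many long noncoding RNAs rose and none fell, a pattern singled out after the values were seen. Of 1547 tested genes of the noncoding transcript classes 210 rose (13.6%) and 0 fell, with a median of 0.54, against 598 of 14198 protein-coding genes higher (4.21%) and 385 lower (2.71%), with a median of -0.01. Sense intronic transcripts had 11 of 48 members higher and a median of 1.23, unconfirmed transcripts of the TEC class 68 of 307 and 0.91, lincRNAs 59 of 461 and 0.43, and antisense transcripts 30 of 397 and 0.48. Processed pseudogenes had 8 higher and 7 lower of 886, with a median of -0.06. The share of all counts that fell in the noncoding classes was 0.742%, 0.694% and 0.749% with vehicle and 1.09%, 1.16% and 0.943% with the combination. With regorafenib alone it was 0.834%, 0.932% and 0.900%, and with anti-PD1 alone 0.849%, 0.718% and 0.767%, so the combination libraries were the highest of the 12. The nuclear transcripts Neat1, the scaffold of paraspeckles, and Malat1, of nuclear speckles, were at 461, 452 and 496 CPM with vehicle and 1504, 1051 and 959 CPM with the combination (1.32 ± 0.26, adjusted p = 0.022) and 118, 134 and 129 CPM against 405, 306 and 218 CPM (1.29 ± 0.27, adjusted p = 0.0264). Kcnq1ot1, the antisense transcript of an imprinted locus, was at 7.13, 6.09 and 4.63 CPM against 12.1, 13.3 and 10.6 CPM (1.01 ± 0.25, adjusted p = 0.0382). Of 12 small nucleolar RNA host genes 3 rose and 0 fell (median 0.26), among them Snhg17. Snhg15 was at 19.4, 20.7 and 23.7 CPM against 30.7, 32.9 and 30.5 CPM (0.56 ± 0.10, adjusted p = 0.0183). Snhg20 was at 19, 19.9 and 19.4 CPM against 34.4, 37.4 and 26.5 CPM (0.75 ± 0.16, adjusted p = 0.0264).

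**Figure D5:**
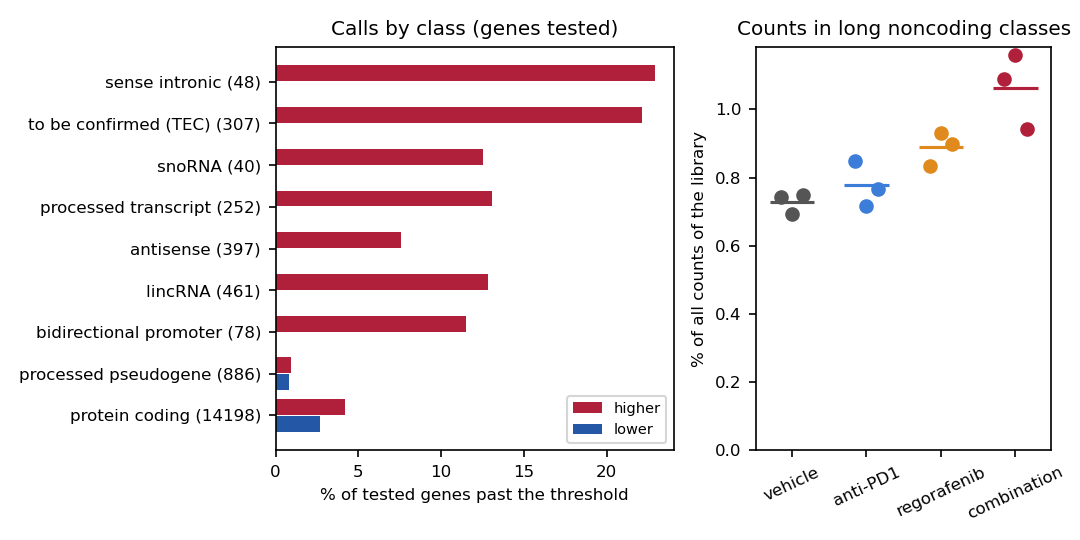
Left, the percent of tested genes of each class that were higher or lower in the combination at an adjusted p under 0.05, with the number tested in brackets. Right, the percent of each library's counts in the noncoding transcript classes, by group; the combination points lie between 0.943% and 1.16% and the vehicle points between 0.694% and 0.749%.

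Calls among protein-coding genes differed with exonic length. In 4 bins of exonic length, about equal in size, from shortest to longest, the share that rose was 1.63%, 2.85%, 4.73% and 7.63%, the share that fell 4.03%, 3.13%, 2.28% and 1.41%, and the median log2 fold change -0.11, -0.06, 0.01 and 0.09. The sources used here give no RNA quality value for the libraries, and its part in this pattern was not tested. Splicing regulators were among the genes that rose, in families also named after their values were seen. All 4 CLK kinases, which phosphorylate SR proteins, rose, with Clk4 at 49.7, 50.2 and 59.4 CPM with vehicle and 99.7, 102 and 78.8 CPM with the combination (log2 fold change 0.82 ± 0.13, adjusted p = 0.0158) and Clk1 at 107, 103 and 118 CPM against 189, 191 and 142 CPM (0.67 ± 0.14, adjusted p = 0.027). All 3 LUC7-like proteins of the U1 particle rose, led by Luc7l2 at 178, 177 and 186 CPM against 337, 338 and 248 CPM (0.77 ± 0.15, adjusted p = 0.022), and 2 of 10 SR splicing factors, Srsf5 (0.66 ± 0.13, adjusted p = 0.0224) and Srsf11 (0.54 ± 0.08, adjusted p = 0.0122). Leng8 (1.02 ± 0.13, adjusted p = 0.0113), Srrm2, a scaffold of nuclear speckles (0.73 ± 0.11, adjusted p = 0.0122), and Mdm4, an inhibitor of p53 (0.68 ± 0.10, adjusted p = 0.0122), were higher too. Of these 18 calls, 0 remained without any 1 vehicle library (adjusted p 0.064 to 0.15), 1 without combination 1, 1 without combination 2 and 18 without combination 3, and 15 without anti-PD1 3; the 1 without combination 1 or 2 was Snhg17. For Luc7l2, 2284 of 12084 exonic bases are shared with the opposite strand, and for Clk3 1284 of 8450.

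Some genes of mitochondria and acid compartments fell, in families again chosen after their values were seen. Of 36 nuclear genes of respiratory complex I, 6 fell and 0 rose (16.7% lower, against 2.32% of all tested genes). In 34 the log2 fold change was negative, and the median was -0.23. These genes are short, with a median exonic length of 1532 bases. In the shortest bin of protein-coding genes the median length was 1913 bases, 4.03% fell and the median log2 fold change was -0.11. The part of exonic length in the complex I decrease was not tested. Of 20 subunits of the vacuolar proton pump 3 fell and 0 rose (median -0.19), while 2.32% of all tested genes fell. Of 75 cytosolic ribosomal proteins 0 passed the test with a median of 0.06, and of 7 mitochondrially encoded protein genes 0, with a median of 0.16.

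Lists for tissue around the graft held no call. The 18 skeletal muscle genes had scores of -1.27, -0.27 and 0.93 in the combination and -0.09, -0.55 and 0.64 with vehicle, and 0 reached an unadjusted p under 0.05. The 13 adipocyte genes had scores of -1.35, 0.91 and 0.59 and -0.58, -0.53 and 1.11 (1 at an unadjusted p under 0.05), and the 3 tested red cell genes -0.33, -0.47 and -1.30 and -0.40, -0.58 and 0.98 (0). The muscle and adipocyte scores spread over more than 1 log2 unit within each of the 2 groups.

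Against regorafenib alone, 0 of 16974 genes differed in the combination (0.00%; edgeR, adjusted p under 0.05), 925 had an unadjusted p under 0.05, and the smallest adjusted p was 0.402. DESeq2 gave 4 genes, and edgeR with the 6 libraries of the 2 arms alone gave 1. None of the genes described above was called different between the combination and regorafenib alone by edgeR. Mest differed by a log2 fold change of -0.38 ± 0.25, Oas3 by -0.16 ± 0.19, Mvk by 0.04 ± 0.14 and Emcn by -0.05 ± 0.20, with adjusted p of 0.856, 0.869, 0.946 and 0.961. The largest of the named differences were in Ighg3, at 0.0846, 0.0879 and 0.0369 CPM with regorafenib alone (5.89 ± 0.83, adjusted p = 0.402), and in Ighg2c (6.19 ± 1.47, adjusted p = 0.856). For Snhg17, whose combination libraries were all above the 3 regorafenib libraries, the difference was 0.34 ± 0.10 (adjusted p = 0.856).

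Against anti-PD1 alone, 326 genes differed in the combination (1.92%), 288 higher (1.70%) and 38 lower (0.224%). The comparison shares its combination libraries with the one against vehicle. Mest was 6.92, 12.7 and 7.94 CPM with anti-PD1 alone and differed by -2.30 ± 0.25 (adjusted p = 0.00878), and Pcdh12 by -2.10 ± 0.26 (adjusted p = 0.00878). Higher genes included Snhg17 (1.04 ± 0.10, adjusted p = 0.00878), Ces2g (1.00 ± 0.11, adjusted p = 0.00878), Oas1b (0.89 ± 0.13, adjusted p = 0.0159) and Ighg3 (5.18 ± 0.77, adjusted p = 0.0159). Idh1 (-0.83 ± 0.14, adjusted p = 0.0259) and Nid2 (-1.69 ± 0.36, adjusted p = 0.0423) were lower. Cd274 was not called between these arms (0.01 ± 0.38, adjusted p = 0.988), and Saa3, at 18.9, 3.99 and 33.1 CPM with anti-PD1 alone, did not differ beyond its spread (0.06 ± 0.62, adjusted p = 0.971). The count was 0 without anti-PD1 2, without anti-PD1 3 or without combination 2, was 21 without combination 1 and 45, 89 and 58 without vehicle 1, 2 and 3, and was 0 with the 6 libraries of the 2 arms alone.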

How the data were processed

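The deposited table holds whole-number read counts per gene for 12 libraries of polyA RNA (TruSeq Stranded mRNA kit, per the labels). The submitters' processing notes name cutadapt 2.4, STAR 2.7.2a and the build GRCm38; the counting tool and its strand setting are not given in the sources used here. Gene names and exons came from GENCODE M21, matched by identifier for 55227 of 55487 rows.

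All 12 libraries were scaled together (TMM) and fitted as 4 group means with edgeR 4.0.16 (R 4.3.3, robust quasi-likelihood test, 8 residual degrees of freedom), after a filter on low counts (filterByExpr, minimum count 10, minimum total 15) that kept 99.9% of counts. P-values were adjusted by Benjamini-Hochberg over all 16974 genes. DESeq2 1.42.0, other scalings and each library left out were tried. Log2 CPM used a prior count of 2, and counting intervals (95%, exact) cover counting error only. Named genes were those with the smallest p or largest change, list members past the threshold or with the smallest p, and a fixed panel; since Mest alone kept its call in all 12 fits that leave out a library, the rest follow by p with the libraries they depend on given. The ranking by p or change left out 256 of the 1246 calls. These had predicted or clone names, were variable, diversity or joining segments of antigen receptors, or had no annotation. The members and lists were chosen with earlier results of these data known. The scripts were tested on simulated counts. Promoter windows are from RefSeq (GRCm38.p6). Some genes of the lists are not reported here by name.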

Additional observations from a re-analysis of the deposited data

How the results depend on the processing

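The count of genes past the threshold against vehicle, 1246, was 663 without the filter on low counts (73.9% of them higher), 2303 with the Y-linked level as a covariate, 2068 with the 6 libraries compared alone, 2563 with DESeq2 and, in a fit added after seeing the data, 829 with protein-coding genes alone. With any 1 library left out it ran from 1 (without vehicle 1, vehicle 2 or vehicle 3) to 1517 (without anti-PD1 1), with 23 without combination 1 and 12 without combination 2; all 1246 genes kept their direction in these 12 fits. Against regorafenib, 0 calls became 1 with the 6 libraries alone and 4 with DESeq2, and stayed 0 in each fit with a library left out. Against anti-PD1, 326 calls became 795 with the Y-linked covariate, 0 with the 6 libraries alone and 1160 with DESeq2 (68.5% of them higher, against 88.3%), and ran from 0 to 432 with a library left out. The cause was not tested.

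The replicate numbers shared between groups did not pair the libraries: the correlation of deviations from the group means between libraries with the same number ran from -0.657 to 0.63. With the number as a replicate block, 11 genes were called against vehicle, 0 against anti-PD1 and 0 against regorafenib.

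Among 187 genes, 8 values changed sign, all in genes that did not pass the test: Pecam1 (-0.409 to 0.053), Cd4 (-0.29 to 0.68), Csf1r (-0.49 to 0.19) and Mki67 (-0.12 to 0.21) over the fits with a library left out, the sign changing without combination 1 (Pecam1, Csf1r), combination 3 (Cd4, Mki67), combination 2, vehicle 1 or vehicle 3 (Mki67), and Csf1r (0.23) with the Y-linked covariate. Of the 35 list medians, 9 changed sign with 1 library left out. These were MHC class II, dendritic and chemokine genes without combination 3, other kinase targets (0.012) and keratinocyte genes without combination 1, VEGF axis genes without vehicle 1 (0.024), combination 1 or combination 2 (0.001), smooth muscle genes without vehicle 1 (-0.133), vehicle 2 (-0.071), combination 2 (-0.06) or combination 3, skeletal muscle genes (0.015) without vehicle 1 (-0.024), vehicle 2 (-0.23) or combination 3 (-0.835), and adipocyte genes (0.312) without vehicle 1 (-0.074) or combination 2 (-0.632). With the Y-linked covariate 5 did: VEGF axis (0.056), other kinase targets (0.039), smooth muscle (-0.016), keratinocyte (-0.072) and Y-linked genes (0.036). Depth limits genes at a few counts, which carry wide intervals.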
